A study of Mus musculus with 206 samples.

Results

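H3K27ac, an acetyl mark on histone H3, was compared in hippocampal neurons of adult mice given lipopolysaccharide (LPS) after perinatal morphine (MOR-LPS) or perinatal saline (SAL-LPS). The comparison took every library labelled hippocampus with 1 of these treatments: 10 MOR-LPS and 13 SAL-LPS libraries of 174 ChIP libraries in the series. SAL-LPS male libraries 1-2 and 5-2 had identical peak lists and were counted as 1 sample, which left 12 SAL-LPS libraries. All mice were wild type C57BL/6NTac adults of both sexes, 4 females and 6 males in MOR-LPS against 7 females and 5 males in SAL-LPS. For MOR-LPS, dams received morphine by osmotic minipump at 10 mg/kg per day, and the pups, raised by untreated surrogate dams, were injected 2 times a day with 10 mg/kg on postnatal days 1 to 14 and then went through withdrawal. For SAL-LPS, pumps and injections held saline. Both groups received LPS as adults, and tissue was taken 2 h later. MOR-SAL (11 libraries) and SAL-SAL (11 libraries) had the same perinatal treatments and an adult saline injection, and entered the same fit. Each library was made from about 10000 nuclei of 1 animal, sorted for the neuronal protein NeuN from bilateral punches, so it averages over the hippocampal neurons in the punch. The identifiers carry a prefix that the study's sample list calls the litter, and the MOR-LPS libraries came from 9 prefixes against 7 for SAL-LPS. Perinatal treatment was given to whole litters and no prefix holds both treatments, so a fixed litter term could not be separated from perinatal treatment. The main fit took each animal as the unit, and alternatives used the prefix as a replicate block or averaged within it.

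H3K27ac sits on the nucleosomes flanking active promoters and enhancers and is written by the acetyltransferases p300 and CBP. LPS is a cell-wall component of Gram-negative bacteria that is recognised by Toll-like receptor 4, whose adaptors MyD88 and TRIF lead to NF-kB and interferon responses. The hippocampus holds the granule neurons of the dentate gyrus, the pyramidal neurons of the CA fields and a smaller set of GABAergic interneurons, and serves memory and the control of stress responses. Morphine acts on the mu opioid receptor, which hippocampal interneurons carry.

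The regions were the 16201 positions of the hippocampus consensus list, with a median length of 4.96 kb and 97.3 Mb in all, of which 4066 (25.1%) lay within 1 kb of a transcription start site (TSS) and 3056 had no TSS within 100 kb. The DNA under the most frequent peak summit is shown for 5 regions on which the results turn: the region of smallest p, those near Ticam1 and Csf1, which belong to the response to LPS and to microglial growth, and the promoter regions of Gpr75 and Diaph3. Each is read from the plus strand of GRCm38.p6 (mm10). Capitals mark an AP-1 match (TGANTCA) or an E-box of the form CAGCTG, and both strands were searched.
chr10:97313412-97313612, intergenic: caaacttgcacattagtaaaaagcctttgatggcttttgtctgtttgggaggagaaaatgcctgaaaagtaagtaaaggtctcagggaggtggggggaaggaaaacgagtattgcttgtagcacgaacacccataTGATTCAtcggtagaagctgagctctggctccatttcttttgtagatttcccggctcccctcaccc
chr17:56269536-56269736, near Ticam1: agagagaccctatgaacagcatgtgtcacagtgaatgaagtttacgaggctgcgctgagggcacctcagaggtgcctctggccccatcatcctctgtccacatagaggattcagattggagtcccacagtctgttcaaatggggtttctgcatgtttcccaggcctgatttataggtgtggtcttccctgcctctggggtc
chr11:30885469-30885669, Gpr75 promoter region: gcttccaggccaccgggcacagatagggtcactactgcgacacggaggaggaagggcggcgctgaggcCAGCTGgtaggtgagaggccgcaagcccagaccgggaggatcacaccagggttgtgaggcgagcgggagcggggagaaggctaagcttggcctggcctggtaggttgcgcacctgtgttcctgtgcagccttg
chr14:86749320-86749520, Diaph3 promoter region: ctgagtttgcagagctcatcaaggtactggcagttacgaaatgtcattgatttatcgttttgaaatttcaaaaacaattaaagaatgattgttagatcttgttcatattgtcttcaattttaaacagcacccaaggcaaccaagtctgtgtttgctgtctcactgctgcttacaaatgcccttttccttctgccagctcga
chr3:107793293-107793493, near Csf1: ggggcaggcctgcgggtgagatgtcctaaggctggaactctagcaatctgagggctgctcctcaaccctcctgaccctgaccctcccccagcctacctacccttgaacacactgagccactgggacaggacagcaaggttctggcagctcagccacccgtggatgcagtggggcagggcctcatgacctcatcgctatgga
The AP-1 match was in the chromosome 10 window and the E-box in the Gpr75 window, and the windows near Ticam1, Diaph3 and Csf1 held neither. In windows of the same length at 16200 regions, 5.77% held the AP-1 match and 13.3% the E-box. The cyclic AMP response element (TGACGTCA), the Egr site (GCGTGGGCG) and the NF-kB consensus were in none of the 5 windows and in 0.142%, 0.0988% and 4.81% of all windows. A match is a description of the letters and not evidence of binding.

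The peak lists held 16414 to 110085 peaks in MOR-LPS (median 57627) and 13021 to 100204 in SAL-LPS (median 53566.5), and this number was the only measure of depth in the lists. The ratio of geometric means was 1.17 (two-sided permutation within sex, p = 0.594). A peak was present in 33.0% to 98.3% of the regions in MOR-LPS libraries and in 28.5% to 96.6% in SAL-LPS libraries. Markers were checked by the share of a list's genes with 1 of the library's 10000 strongest peaks within 1 kb of the TSS. All 11 neuron markers were marked in some library. Their share ran from 18.2% to 81.8% in MOR-LPS (median 31.8%) and from 18.2% to 72.7% in SAL-LPS, which had the higher median. Rbfox3, the gene of NeuN, was marked in 5 of 10 MOR-LPS and 11 of 12 SAL-LPS libraries. Camk2a, a kinase of forebrain excitatory neurons, was marked in 9 of 10 MOR-LPS and 10 of 12 SAL-LPS libraries. Other markers of these neurons were less even, with Mef2c in 3 of 10 and 8 of 12 and Zbtb20 in 9 of 10 and 6 of 12. Emx1 was marked in none. Of the hippocampal neuron markers, 4 of 10 for dentate granule neurons, 4 of 12 for CA pyramidal neurons and 17 of 20 for interneurons were marked in no library. The microglia list had 9 of 11 genes marked in no library, endothelial and mural cells 9 of 10, oligodendrocytes 8 of 13 and astrocytes 6 of 11. Oligodendrocyte markers reached 15.4% in MOR-LPS female 15-3 and 38.5% in SAL-LPS female 10-4, and the median was 0 in both groups. The lists also differ in how their peaks are named, for which the labels give no reason: 2 of the 5 styles occur in both groups (3 MOR-LPS against 3 SAL-LPS, and 3 against 4), 1 in MOR-LPS alone and 2 in SAL-LPS alone. MOR-LPS female 12-0 holds 2 peaks on the Y chromosome and no other library labelled female holds any, but 8 of the 11 male libraries hold none either and the other 3 hold 1 each, so these peaks do not separate the sexes.

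**Figure D1:**
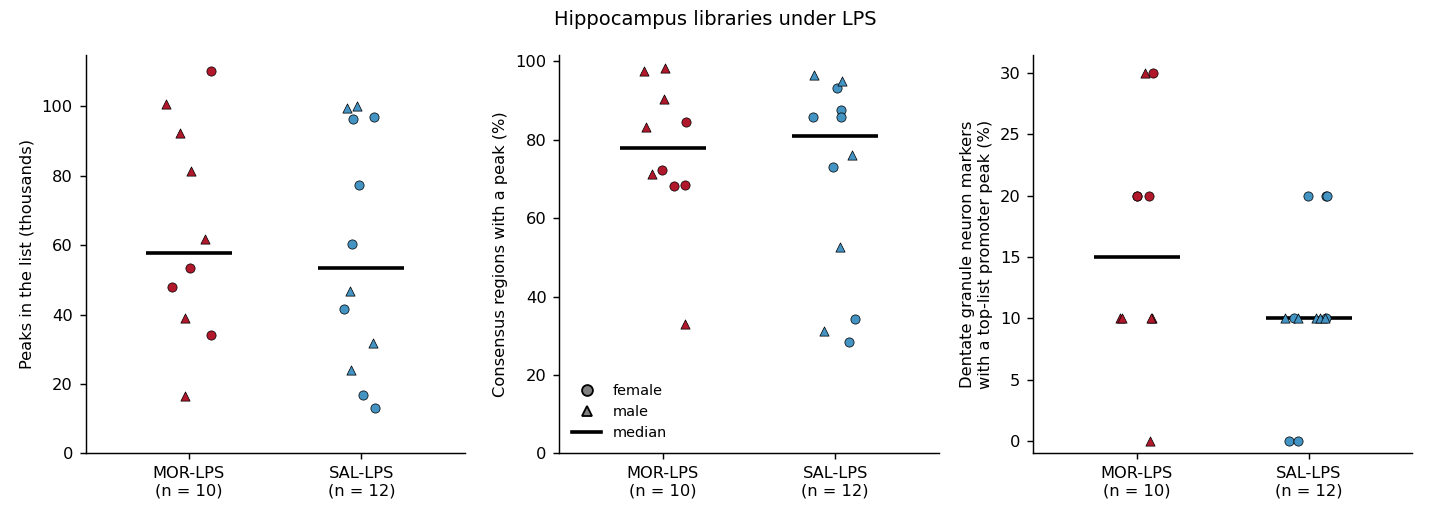
Number of peaks, percentage of the 16201 consensus regions with a peak, and percentage of 10 dentate granule neuron markers with a top-list promoter peak, for 10 MOR-LPS and 12 SAL-LPS hippocampus libraries (circles female, triangles male, lines medians). The groups overlap in all 3 panels, and the mean marker share was 16.0% for MOR-LPS libraries against 10.8% for SAL-LPS libraries.

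Each region was ranked within its library by its strongest peak, with 100 the highest rank and 0 the lowest. Regions without a peak shared 1 tied rank, which was higher where fewer regions had a peak. It ran from 0.873 to 33.5 in MOR-LPS libraries and from 1.69 to 35.8 in SAL-LPS libraries. Ranks of this size can therefore belong to a library without a peak at the region. A difference is MOR-LPS minus SAL-LPS in percentile points, and a negative one means that the region ranked lower in MOR-LPS. No region was called between MOR-LPS and SAL-LPS by limma at an adjusted p under 0.05 (0% of 16201), and the smallest adjusted p was 0.0919. At an unadjusted p under 0.05 there were 1225 regions (7.56%), of which 582 (3.59%) ranked higher in MOR-LPS and 643 (3.97%) ranked lower. Over all regions the median difference was 0.08 points, and the middle of the distribution, from the 5th to the 95th percentile, ran from -18.1 to 17.8 points with a median SE of 10.0. No region had MOR-LPS and SAL-LPS ranks that did not overlap (0%). A difference that was not called is not shown to be absent. P-values measure the spread between these animals.

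None of the 12 regions of smallest p with lower ranks in MOR-LPS was called. First by p came an intergenic region of chromosome 10 (chr10:97313070-97315188), 164 kb from Dcn, the gene of the matrix proteoglycan decorin. Its lowest, median and highest ranks were 14.3, 56.3 and 91.0 in MOR-LPS against 69.5, 95.6 and 99.8 in SAL-LPS. All 10 MOR-LPS libraries lay below the SAL-LPS median, and 8 of 12 SAL-LPS libraries lay above the highest MOR-LPS one, although the ranges overlap. The difference was -36.0 points (SE 7.65, adjusted p = 0.0919 by limma). It was called without MOR-LPS 15-3, 16-4, 13-2 or 6-4 or without SAL-LPS 4-2 (adjusted p 0.0115 to 0.0439), and over all fits that left out 1 library the adjusted p ran from 0.0115 to 0.259. With the naming style of the lists as a term the adjusted p was 0.516, and whether that style has a part in the difference was not tested further.

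Ticam1 encodes TRIF, the adaptor that carries signals of Toll-like receptors 3 and 4 to interferon genes. A region 6.4 kb from its TSS (chr17:56263867-56270427) ranked 13.8, 49.4 and 80.9 (lowest, median, highest) in MOR-LPS against 27.5, 90.4 and 97.2 in SAL-LPS. 9 of 12 SAL-LPS libraries stood above every MOR-LPS library, while 1 SAL-LPS female was far below the rest of its group. The difference was -35.8 points (SE 8.71, adjusted p = 0.225 by limma), with -32.2 in females and -42.2 in males. Without LPS, MOR-SAL minus SAL-SAL was 5.56 points at the same region.

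The region over the start sites of Gpr75, a G protein-coupled receptor, and Asb3 (chr11:30883665-30886451) ranked 13.8, 31.4 and 55.9 in MOR-LPS against 13.5, 84.6 and 97.5 in SAL-LPS. Here 10 of 12 SAL-LPS libraries were above the highest MOR-LPS library, and the other 2, both female, ranked among or below the MOR-LPS libraries. Those 2, SAL-LPS 10-2 and 4-2, and MOR-LPS 12-0, 18-1, 14-2 and 6-0 had no peak there, so their ranks are tied ranks. The difference was -43.3 points (SE 11.1, adjusted p = 0.307 by limma). Arpp19, whose product restrains the phosphatase PP2A, had a region over its TSS (chr9:75048992-75056109) with ranks of 7.74, 15.1 and 55.5 in MOR-LPS against 7.65, 74.0 and 99.1 in SAL-LPS. That difference, -45.0 points (SE 10.9, adjusted p = 0.225), was the largest in size of all 16201 regions, and 4 SAL-LPS females ranked among or below the MOR-LPS libraries. In MOR-LPS only males 13-2, 6-4 and 8-3 had a peak there, at 55.5, 18.6 and 7.78. The other MOR-LPS ranks, and with them the median, are tied ranks of libraries without one. Rgs8, which shortens G protein signals, had an intronic region (chr1:153676866-153680299) that ranked 14.3, 56.2 and 97.8 in MOR-LPS against 59.7, 92.8 and 99.4 in SAL-LPS (difference -32.3, SE 7.90, adjusted p = 0.225).

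The other 7 lower regions lay in introns of Zmat4, Dsg2 (a desmosomal cadherin), Rasgef1b (an exchange factor for small GTPases), Ptprn2 (a membrane protein of dense-core vesicles) and Atxn7l1, and near Clk3 (a kinase of splicing factors) and Tmco5. The Zmat4 region ranked 15.8, 36.2 and 83.9 in MOR-LPS against 35.7, 82.6 and 97.9 in SAL-LPS, and 6 of 12 SAL-LPS libraries exceeded all MOR-LPS ones. At Atxn7l1 the ranks were 8.40, 27.2 and 45.3 in MOR-LPS against 27.2, 68.6 and 97.6 in SAL-LPS, with 9 of 12 SAL-LPS libraries above the highest MOR-LPS library. The region near Clk3 ranked 1.24, 12.2 and 33.5 in MOR-LPS against 7.11, 35.0 and 98.9 in SAL-LPS. In MOR-LPS only male 13-2 had a peak there, at 10.5, and the other ranks are tied ranks of libraries without one. SAL-LPS 2-0, 2-2, 11-0, 3-3 and 5-0 had no peak there either. Over the 12 lower regions the differences ran from -45.0 to -26.6 points and the adjusted p from 0.0919 to 0.462, and 2 were promoter regions. All 12 had the same sign in both sexes and in each of the 2 naming styles that both groups share, which their choice by p from the same libraries favours. Without LPS, 5 of the 12 had the same sign.

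**Figure D2:**
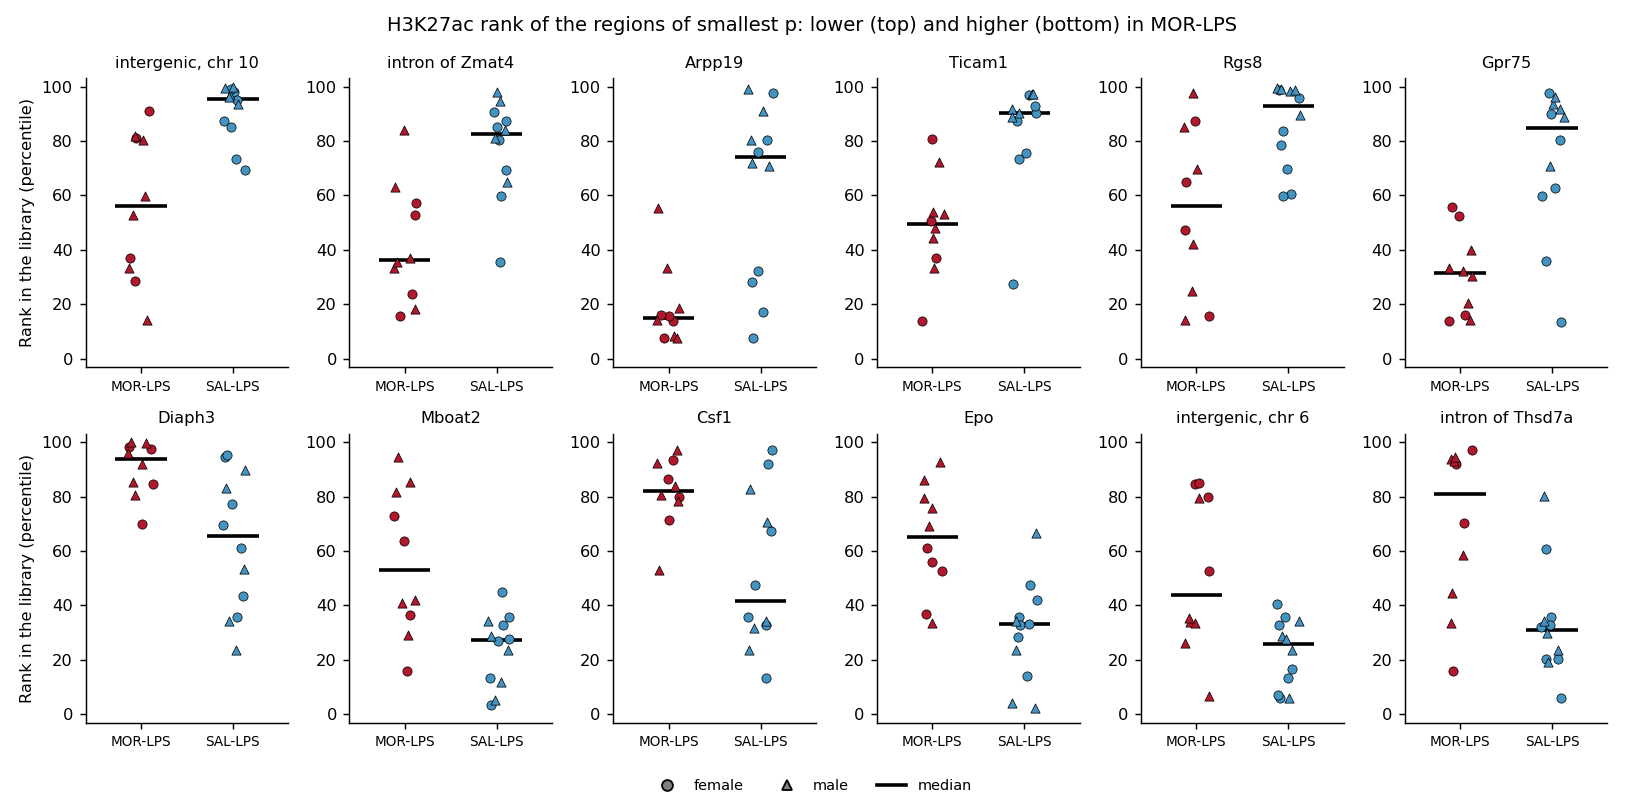
Percentile rank of H3K27ac in each MOR-LPS (left, n = 10) and SAL-LPS (right, n = 12) library for 6 of the regions with lower (top) and 6 with higher ranks (bottom) in MOR-LPS, circles for females, triangles for males and lines for medians. The groups overlap in every panel, and in the Gpr75 panel 10 of 12 SAL-LPS libraries lie above all MOR-LPS libraries.

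The 12 regions of smallest p with higher ranks in MOR-LPS were not called either. Diaph3 encodes a formin that builds actin filaments, and the region over its TSS (chr14:86740874-86753032) ranked 70.0, 93.9 and 99.9 in MOR-LPS against 23.7, 65.4 and 95.1 in SAL-LPS. All 10 MOR-LPS libraries were above the SAL-LPS median and 5 were above the highest SAL-LPS library. The difference was 28.1 points (SE 6.97, adjusted p = 0.227 by limma). Csf1 is the growth factor on which microglia depend, and a region 27.3 kb from its TSS (chr3:107787799-107798395) ranked 53.0, 82.2 and 97.0 in MOR-LPS against 13.5, 41.7 and 97.0 in SAL-LPS. Every MOR-LPS library was above the SAL-LPS median, and 1 was above the highest SAL-LPS library. The difference was 30.8 points (SE 8.76, adjusted p = 0.513), with 27.7 in females and 32.2 in males, and MOR-SAL minus SAL-SAL was -12.8 points.

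Mboat2, an acyltransferase that remodels membrane phospholipids, had an intronic region (chr12:24869726-24873612) with ranks of 15.9, 52.9 and 94.7 in MOR-LPS against 3.34, 27.2 and 45.0 in SAL-LPS. 5 MOR-LPS libraries exceeded all SAL-LPS libraries, and the others were within their range (difference 34.2, SE 9.53, adjusted p = 0.484). A region 5.1 kb from the TSS of Epo, the gene of the red-cell growth factor erythropoietin (chr5:137490884-137495112), ranked 33.5, 65.2 and 92.8 in MOR-LPS against 2.48, 33.1 and 66.8 in SAL-LPS. All 10 MOR-LPS libraries were above the SAL-LPS median there (difference 33.6, SE 9.67, adjusted p = 0.520). The lowest of them, male 6-0 at 33.5, had no peak in the region, and 33.5 is its tied rank. The other 8 lay over the start sites of Selenow (selenoprotein W), Pde4dip (an anchor protein of the Golgi and centrosome) and Rilpl1 (a Rab effector), near Bod1 and Klrb1b, in an intron of Thsd7a, and in intergenic stretches 181 kb from Lrrn1 and 304 kb from Gadd45g. The Selenow region ranked 44.6, 85.5 and 97.4 in MOR-LPS against 14.3, 58.1 and 88.9 in SAL-LPS, and that of Rilpl1 ranked 69.3, 91.4 and 99.9 in MOR-LPS against 32.9, 60.1 and 99.8 in SAL-LPS. The intron of Thsd7a had the largest difference of these, with ranks of 15.8, 81.1 and 97.2 in MOR-LPS against 6.16, 30.9 and 80.2 in SAL-LPS (difference 36.5, SE 10.9, adjusted p = 0.520). The groups overlap at each of these regions. The 12 higher regions had differences of 21.3 to 36.5 points and adjusted p of 0.227 to 0.520. All 12 had the same sign in both sexes and in both shared naming styles, which their choice by p from the same libraries favours. Without LPS, 7 of the 12 had the same sign.

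A separate measure asked only whether a region overlapped 1 of the 10000 strongest peaks of a library. Of 8782 regions present in 20% to 80% of the libraries, none was called by the exact conditional test stratified by sex (0%), and 290 (3.30%) had an unadjusted p under 0.05. The Gpr75 promoter region had the smallest unadjusted exact p, 0.000774, with a top peak in 0 of 10 MOR-LPS and 8 of 12 SAL-LPS libraries (adjusted p = 1). An intronic region of Pcbp3, which encodes an RNA-binding protein (chr10:76881521-76884596), had a top peak in 7 of 10 MOR-LPS and 0 of 12 SAL-LPS libraries (unadjusted exact p = 0.0011). The region near Ticam1 had a top peak in 2 of 10 MOR-LPS and 11 of 12 SAL-LPS libraries (unadjusted exact p = 0.00186). Both of these had an adjusted p of 1.

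No region near a gene that marks dentate granule or CA pyramidal neurons was called. Of 40 regions near 9 dentate granule genes, 34 had a positive difference (8142 of 16201 over all regions), and 6 (15.0%) were higher and none lower at an unadjusted p under 0.05, beside 3.59% higher and 3.97% lower over all regions. The median was 6.64 points beside 0.08 over all regions, and the smallest adjusted p was 0.609. Leaving out 1 library at a time moved the median between 5.68 and 10.1 points, and with the naming style as a term it was 10.5. An intronic region of Stxbp6, which encodes a partner of the vesicle fusion machinery, ranked 33.5, 88.1 and 97.9 in MOR-LPS against 18.3, 49.9 and 91.8 in SAL-LPS. It was above the SAL-LPS median in 9 of 10 MOR-LPS libraries (difference 25.1, SE 10.5). Rfx3, a transcription factor of the cilium programme, had a region with a difference of 22.9 (SE 10.3), and Sema5a, a guidance molecule of developing neurons, 1 with 22.3 (SE 9.89). The list's median was also positive without LPS (6.86 points for MOR-SAL minus SAL-SAL), and was 3.44 points within 1 shared naming style and 14.3 within the other. With the share of dentate granule markers as a term the median was 4.09 points.

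For CA pyramidal markers, 26 regions had a median of -3.45 points (-4.79 to -0.93 leaving out 1 library, and -0.09 with lists of equal length). None was higher and 1 lower (3.85%, beside 7.56% over all regions) at an unadjusted p under 0.05. That region lay at Mpped1 and ranked 7.74, 20.01 and 74.8 in MOR-LPS against 12.0, 59.7 and 91.9 in SAL-LPS (difference -24.9, SE 11.5, adjusted p = 0.630). The CA median was -1.39 points within 1 shared naming style and 2.51 within the other, so its sign was not the same in both. Genes of forebrain glutamatergic neurons had 43 regions with 4 higher and 4 lower (18.6%) at an unadjusted p under 0.05. Their median was 1.31 points, which changed sign leaving out 1 library (-0.84 to 3.47) and was 4.62 with the naming style as a term. Within this list a promoter region of Mef2c, a factor of synaptic plasticity, ranked 14.3, 66.1 and 97.4 in MOR-LPS against 59.1, 88.3 and 99.8 in SAL-LPS (difference -23.1, SE 7.48, adjusted p = 0.559). That was the lowest difference of the list, and the highest was 22.0 points. The other promoter regions of Mef2c had differences of -11.6, -8.09, -4.12 and 8.59 points. General neuron markers had 55 regions with 1 higher and 3 lower (7.27%) and a median of -2.45 points (-3.52 to -0.69 leaving out 1 library). Among them was a region of Rbfox3, the gene of the sorted NeuN protein, at -23.4 (SE 10.1, adjusted p = 0.609). Interneuron markers had 12 regions, none past an unadjusted p of 0.05 in either direction, with a median of -0.73 points (-4.23 to 2.26). In these sorted nuclei a change in the share of a cell type and a change within it cannot be told apart.

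No region of the NF-kB, interferon or cytokine lists passed an unadjusted p of 0.05. The NF-kB list had 15 regions near 12 of 23 genes with a median of 2.72 points, which was 0.60 to 7.48 leaving out 1 library at a time and 10.4 with the naming style as a term. A region 24.7 kb from Nfkbia, the inhibitor that NF-kB itself induces, ranked 31.4, 78.4 and 92.03 in MOR-LPS against 23.7, 48.5 and 87.7 in SAL-LPS (difference 17.5, SE 9.63, adjusted p = 0.692). Nfkbiz, an atypical IkB induced by LPS, had a promoter region at 16.8 points (SE 9.28), of which females gave -2.01 and males 35.3. The acute-phase gene Serpina3n had 11.5 points (SE 7.20) at its promoter region. The interferon list had only 4 regions, near 2 of 17 genes, with a median of 12.0 points in LPS and -2.76 without. Its region near Irf1, an interferon-regulated transcription factor, had 15.0 points (SE 10.4). Cytokine genes had 3 regions, near Il12a (6.05 and 2.33 points) and Il1b (-2.71 points), with adjusted p of 0.929 to 0.974.

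Immediate early genes, which neurons switch on with activity, had 64 regions with a median of 1.39 points (0.50 to 3.20 leaving out 1 library). At an unadjusted p under 0.05, 2 were higher and 1 lower (4.69%, beside 7.56% over all regions). The 2 higher regions lay near Btg2, an antiproliferative early gene, with a difference of 21.4 points (SE 7.88, adjusted p = 0.575), and near Bdnf, a neurotrophin, with 24.4 (SE 10.3, adjusted p = 0.609). At the first of them ranks were 66.3, 87.4 and 99.1 in MOR-LPS against 26.6, 69.5 and 99.0 in SAL-LPS. The lower one, 9.4 kb from Dusp1, a phosphatase that ends MAP kinase signals, ranked 4.75, 21.1 and 45.4 in MOR-LPS against 7.11, 54.2 and 88.9 in SAL-LPS (difference -25.5, SE 10.5, adjusted p = 0.606). There all 10 MOR-LPS libraries were below the SAL-LPS median, and 8 SAL-LPS libraries were above all MOR-LPS ones. Glucocorticoid and stress genes had 33 regions with a median of 4.04 points (0.22 to 5.78), 2 higher and 1 lower (9.09%). Both directions occurred in Sgk1, a kinase induced by glucocorticoids, at 22.7 points (SE 10.4) and -22.0 points (SE 9.93) for 2 intronic regions. Heat shock genes had 9 regions with none past an unadjusted p of 0.05 and a median of -1.10 points (-3.46 to 2.12).

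Regions near circadian clock genes had a median of -4.61 points over 34 regions, with none higher and 2 lower (5.88%, beside 7.56% over all regions) at an unadjusted p under 0.05. The median was -5.84 to -2.36 leaving out 1 library and -1.65 with lists of equal length. Rora, a nuclear receptor that activates Bmal1, had an intronic region (chr9:68654648-68657156) with ranks of 4.21, 13.9 and 79.995 in MOR-LPS against 7.11, 56.4 and 99.6 in SAL-LPS. The difference was -35.2 points (SE 9.99, adjusted p = 0.513), with 9 of 10 MOR-LPS libraries below the SAL-LPS median. In MOR-LPS only 18-1, 13-2 and 8-3 had a peak there, and the other ranks are tied ranks. SAL-LPS 10-2 and 2-2 had no peak there either. Rora also stands in the list of thalamus markers, whose 7 regions had 1 higher and 1 lower (28.6%) and a median of 5.40 points (1.48 to 9.63 leaving out 1 library). Nfil3, a repressor of clock output that is also induced in immune cells, had a promoter region at -27.2 points (SE 10.7, adjusted p = 0.602), which came from males (-51.2) more than females (-1.29), a difference between the sexes that was not called. Per3, a clock repressor, had -20.7 points (SE 10.6, adjusted p = 0.668).

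Opioid system genes had 40 regions with a median of -3.95 points (-6.78 to -0.61 leaving out 1 library). At an unadjusted p under 0.05, 2 were higher and 3 lower, a larger share than the 7.56% over all regions. The promoter region of Oprl1, the nociceptin receptor, ranked 22.8, 68.8 and 98.7 in MOR-LPS against 62.4, 83.8 and 99.98 in SAL-LPS (difference -19.1, SE 6.64, adjusted p = 0.562). A region 82.2 kb from Rgs4, which limits opioid receptor signals, had -27.5 points (SE 10.8, adjusted p = 0.597). Arrb2, the beta-arrestin that desensitises the mu opioid receptor, had 21.7 points (SE 10.1, adjusted p = 0.634) at its promoter region and a similar 25.7 points without LPS.

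Synaptic and channel genes made up the longest lists, and the share of their regions at an unadjusted p under 0.05 was below that over all regions. Synapse scaffolds and adhesion molecules had 158 regions with 2 higher and 8 lower (6.33% beside 7.56% over all regions) and a median of -2.12 points (-3.03 to -1.30 leaving out 1 library). Shank2, a postsynaptic scaffold of glutamate synapses, had an intronic region with 27.7 points (SE 10.3), and Psd3, an exchange factor for Arf6, 1 with -26.5 (SE 9.39). Voltage-gated and related channels had 149 regions with none higher and 4 lower (2.68%) and a median of -0.40 points (-2.25 to 0.33). Kcnq3, a subunit of the M current, had an intronic region (chr15:66269191-66275531) that ranked 8.40, 40.8 and 70.0 in MOR-LPS against 32.9, 76.1 and 92.8 in SAL-LPS. All 10 MOR-LPS libraries were below the SAL-LPS median (difference -30.1, SE 10.2, adjusted p = 0.562). Kcnn2 and Kcnma1, both calcium-activated potassium channels, had intronic regions at -26.0 (SE 9.09, adjusted p = 0.562) and -20.2 (SE 8.58, adjusted p = 0.609). Glutamate and GABA receptor genes had 115 regions with 1 higher and 4 lower (4.35%) and a median of -1.25 points (-2.28 to -0.57). Their 3 regions of smallest p lay at the promoter of Grm5, a metabotropic glutamate receptor (-19.4, SE 8.69), in Gabrb1 (24.9, SE 10.9) and at Gabra4 (-22.4, SE 10.5), both GABA-A receptor subunits, with adjusted p of 0.609 to 0.634.

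Lipid and glucose genes had 43 regions with a median of 0.07 points (-2.73 to 0.83 leaving out 1 library). At an unadjusted p under 0.05, 3 were higher and none lower (6.98%, beside 7.56% over all regions). The 3 were at the promoter of Hk1, the hexokinase of brain (24.3, SE 10.8), in Mgll, the lipase that degrades the endocannabinoid 2-arachidonoylglycerol (19.9, SE 8.96), and near Ppara, a lipid-sensing nuclear receptor (21.9, SE 10.3). Their adjusted p was 0.614 to 0.636, and the list had a median of 10.6 points in females and -5.55 in males. Genes that the study singled out from its hypothalamus comparison under LPS had 77 regions here. That comparison used several of the same animals, so these genes are not independent evidence. There were 4 higher and 3 lower regions (9.09%), and the median was 2.01 points (0.30 to 3.57). Tcf4, a bHLH transcription factor of neurons, had intronic regions of both signs, at 23.4 (SE 9.88) and -24.3 points (SE 10.2), each with an adjusted p of 0.609. Genes that the study singled out from its comparison without LPS had 22 regions with 1 higher and none lower (4.55%) and a median of 0.00 points (-2.76 to 3.13).

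**Figure D3:**
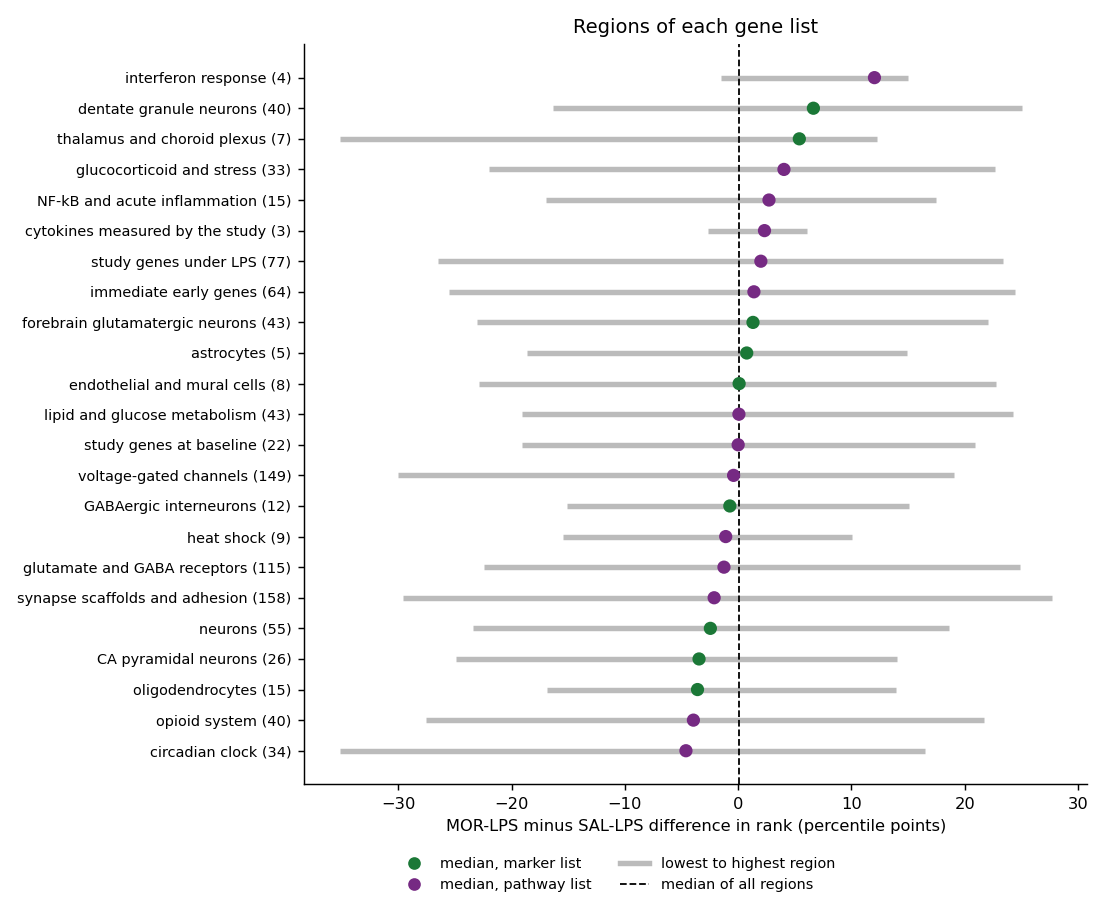
Median (points) and range (bars) of the MOR-LPS minus SAL-LPS difference in rank, in percentile points, over the regions of each gene list, with the number of regions in parentheses and the median of all regions as a dashed line. Dentate granule neurons have a median of 6.64 points over 40 regions and circadian clock genes -4.61 over 34, and the bars of all lists shown cross 0.

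Whether the difference under LPS departed from that without LPS was tested as an interaction, (MOR-LPS minus SAL-LPS) minus (MOR-SAL minus SAL-SAL). Limma called 1 region of 16201 (0.00617%), and 917 (5.66%) were below 0.05 before adjustment. It was the intergenic region of chromosome 10 described above, whose lowest, median and highest ranks without LPS were 67.9, 89.9 and 99.9 in MOR-SAL against 31.7, 85.4 and 96.3 in SAL-SAL. Of the 4 groups MOR-LPS had the lowest median. The interaction was -52.8 points (SE 10.8, adjusted p = 0.0372), from -36.0 under LPS and 16.8 without. It lost its call when any 1 of 12 libraries was left out (MOR-LPS 12-0, 18-1, 14-2 or 6-0, or SAL-LPS 10-0, 10-4, 2-0, 1-0, 1-2, 11-0, 3-3 or 5-0), with an adjusted p of up to 0.115. The difference ran from -57.6 to -48.2 points over all 22 fits that left out 1 library. The call was also lost with the naming style as a term (-50.1 points, adjusted p = 0.808).

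The next 5 regions of this interaction were not called. A region 28.3 kb from Cacna1i, a T-type calcium channel, ranked 7.74, 19.7 and 49.7 in MOR-LPS against 7.15, 57.3 and 91.0 in SAL-LPS, and 7.35, 65.2 and 92.7 in MOR-SAL against 7.22, 22.2 and 86.7 in SAL-SAL. MOR-LPS and SAL-SAL were thus the low groups (interaction -61.9, SE 14.5, adjusted p = 0.275). N4bp2l1 had the opposite order, with medians of 65.6 in MOR-LPS against 34.4 in SAL-LPS and 30.5 in MOR-SAL against 70.4 in SAL-SAL (interaction 60.2, SE 14.6, adjusted p = 0.311). Regions near Ppfia4, which encodes a liprin of presynaptic active zones (-54.4, SE 13.6), in Atxn7l1 (-54.4, SE 14.3) and in Btbd3, which orients dendrites (-46.9, SE 12.4), had adjusted p of 0.384 to 0.513.

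**Figure D4:**
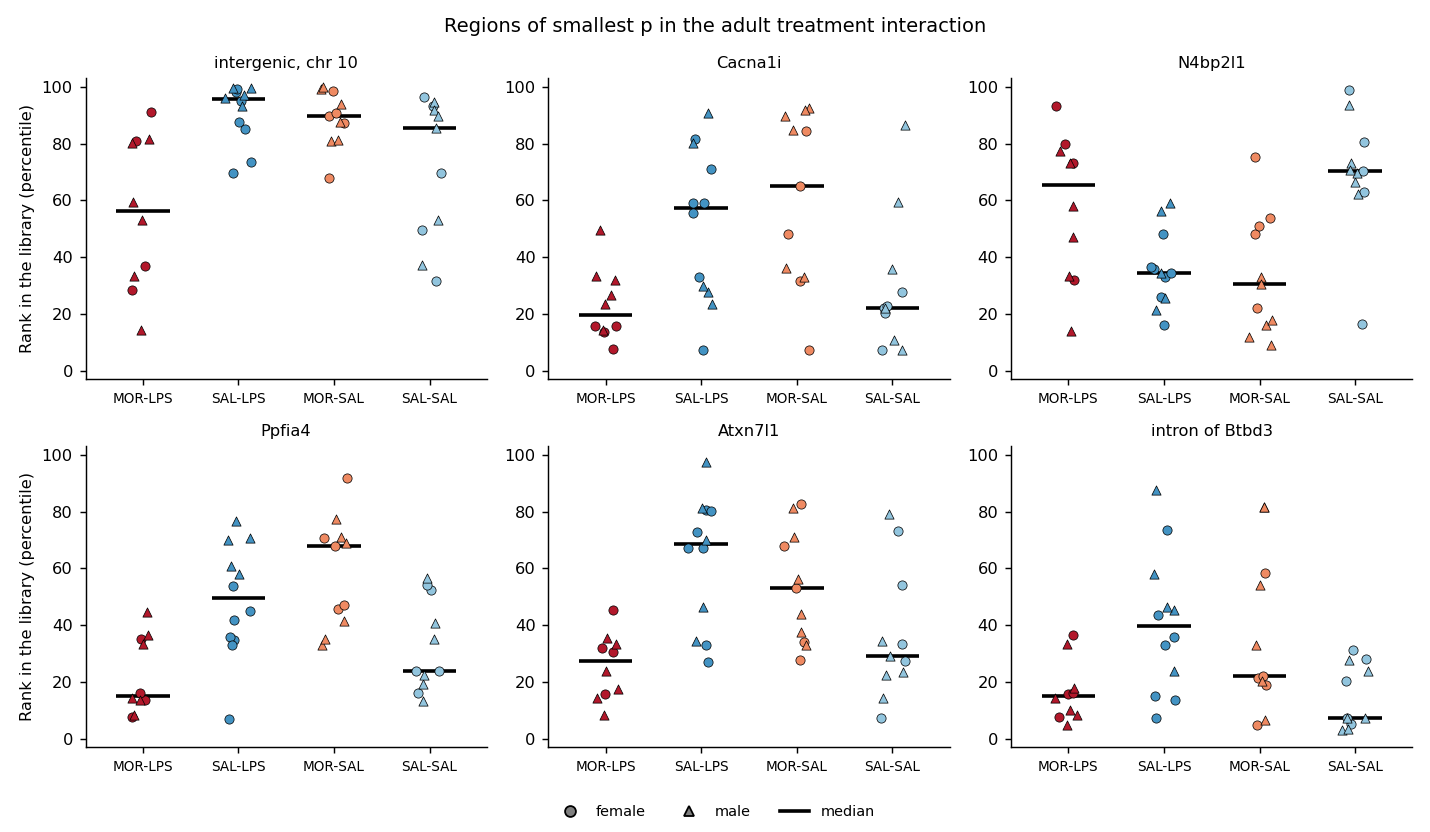
Percentile rank in each MOR-LPS, SAL-LPS, MOR-SAL and SAL-SAL library for the 6 regions of smallest p in the adult treatment interaction, circles for females, triangles for males and lines for medians. At the chromosome 10 region MOR-LPS has a median of 56.3 and the other groups of 85.4 to 95.6.

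In females alone no region was called between MOR-LPS and SAL-LPS by limma (1033 or 6.38% at an unadjusted p under 0.05, smallest adjusted p 0.0518), and in males none was called either (1598 or 9.86%, smallest adjusted p 0.0586). The difference between the sexes, females minus males, was called at 2 of 16201 regions (0.0123%), with 1345 (8.30%) below 0.05 before adjustment. Both lay in introns. In Mitf, a transcription factor of melanocytes and mast cells (chr6:97852808-97858399), female ranks were 13.8, 15.9 and 58.9 in MOR-LPS against 35.8, 77.1 and 97.5 in SAL-LPS. Male ranks ran the other way, at 33.5, 74.5 and 99.0 in MOR-LPS against 2.48, 13.4 and 34.4 in SAL-LPS. MOR-LPS females 12-0, 16-4 and 18-1 and male 6-0 had no peak in this region. SAL-LPS female 10-2 and males 1-2, 11-0, 3-3 and 5-0 had none either, so the low ranks are mostly tied ranks. The difference between the sexes was -102 points (SE 20.9, adjusted p = 0.045), from -49.7 in females and 52.1 in males.

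In Gramd4, which encodes a GRAM domain protein (chr15:86080797-86088528), male ranks were 3.15, 14.9 and 33.5 in MOR-LPS against 73.8, 83.7 and 84.2 in SAL-LPS, with no overlap, as in 0.722% of regions among males. Female ranks were 33.7, 75.3 and 90.2 in MOR-LPS against 7.11, 35.8 and 77.1 in SAL-LPS. MOR-LPS males 14-2, 17-1 and 6-0 and SAL-LPS females 10-2, 2-0, 2-2 and 4-2 had no peak there. Their ranks are tied ranks. The difference between the sexes was 97.8 points (SE 20.7, adjusted p = 0.045), from 31.7 in females and -66.1 in males. An intronic region of Chst11, a chondroitin sulfotransferase (chr10:83104898-83109068), had female ranks of 70.1 to 92.02 in MOR-LPS against 7.11 to 35.8 in SAL-LPS, with no overlap, as in 0.753% of regions among females (difference between the sexes 79.9, SE 17.5, adjusted p = 0.059). SAL-LPS females 10-2, 2-0, 2-2 and 4-2 had no peak in that region, and theirs are tied ranks. Kalrn, an exchange factor that shapes dendritic spines (-50.9, SE 11.9, adjusted p = 0.105), Cpsf6, an mRNA cleavage factor (-71.8, SE 17.1, adjusted p = 0.118), and an intergenic region 260 kb from Gria2 (-63.7, SE 14.5, adjusted p = 0.091) followed.

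Both calls depended on single libraries. Leaving out 1 library at a time, Mitf kept its call only without MOR-LPS 15-3, 14-2 or 6-0 or SAL-LPS 10-0, 10-2, 10-4, 1-2 or 5-0, with adjusted p of 0.0064 to 0.123 over the 22 fits. Gramd4 kept it only without MOR-LPS 18-1 or 6-0 or SAL-LPS 10-0, 10-4 or 1-2 (0.0112 to 0.168). Without MOR-LPS 12-0, the female library with Y chromosome peaks, the differences were -97.7 points at Mitf and 99.3 at Gramd4, each with an adjusted p of 0.0658. With the naming style as a term they were -95.2 (adjusted p = 0.115) and 89.4 (adjusted p = 0.129), so in both fits the differences stayed near their size. With lists of equal length they were -78.1 (adjusted p = 0.297) and 73.0 (adjusted p = 0.272), and the 2 regions called there were others, 1 of them the Chst11 region (adjusted p = 0.0449). Nearly all identifier prefixes hold 1 sex, so within them sex and litter cannot be told apart.

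**Figure D5:**
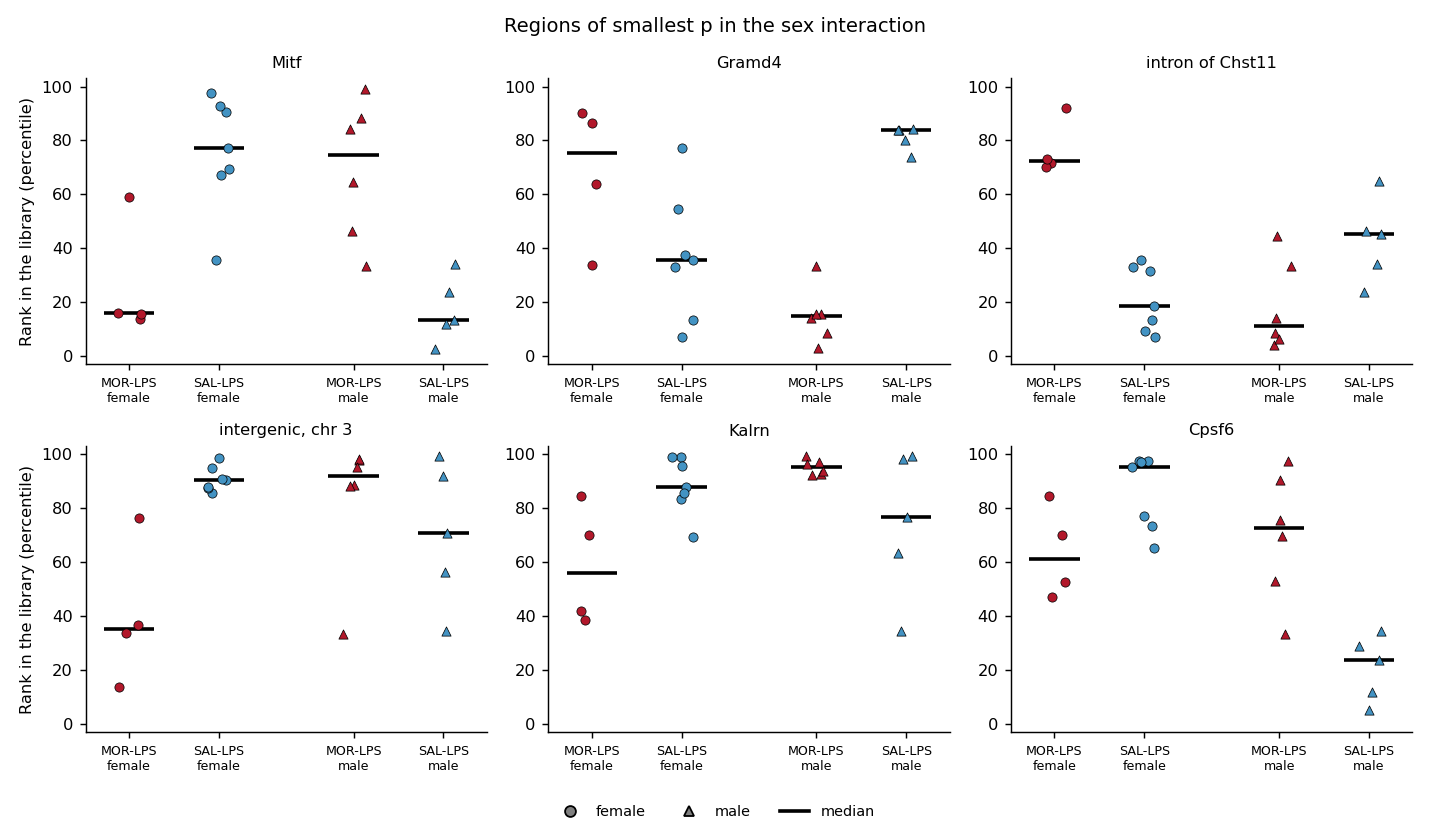
Percentile rank in female (left pair, 4 MOR-LPS and 7 SAL-LPS) and male (right pair, 6 MOR-LPS and 5 SAL-LPS) libraries for the 6 regions of smallest p in the difference between the sexes, with lines for medians. In Mitf the medians are 15.9 in MOR-LPS against 77.1 in SAL-LPS females and 74.5 in MOR-LPS against 13.4 in SAL-LPS males.

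The same contrast in the hypothalamus, a separate dissection partly of the same animals (5 MOR-LPS and 8 SAL-LPS mice gave both), called 594 of 13788 regions (4.31%) by limma with 10 MOR-LPS and 11 SAL-LPS libraries. Of the 24 hippocampus regions of smallest p, 16 overlapped a hypothalamus region, and 10 of these 16 had the same sign there. The intronic region of Mboat2 gave 32.9 points in the hypothalamus (adjusted p = 0.014), beside 34.2 in the hippocampus, and was the smallest adjusted p of the 16. The Diaph3 region gave 29.5 points (adjusted p = 0.098) and the region near Csf1 25.8 (adjusted p = 0.092). The region near Tmco5 had the opposite sign, at 19.7 points in the hypothalamus (adjusted p = 0.059) beside -29.9 in the hippocampus, while the region near Ticam1 gave 1.26 (adjusted p = 0.951) and the chromosome 10 region 6.24 (adjusted p = 0.611). Whether the hippocampus and hypothalamus differences themselves differ was not tested.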

How the data were processed

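H3K27ac was profiled by MOWChIP-seq, a microfluidic ChIP for few nuclei. The submitters' processing notes name Trim Galore 0.6.7 for trimming, Bowtie2 2.4.5 and the mm10 build for alignment, SAMtools 1.15.1, MACS2 2.2.7.1 for the peaks of each library and DiffBind 3.10.1 for the consensus regions. Hippocampus libraries were made with the ThruPLEX kit. The deposited narrowPeak lists give each peak the −log10 p and −log10 q that the authors computed with MACS2, a fold enrichment (a ratio over local background) and a score, the −log10 q scaled to a whole number. They hold no read counts, so no count model was fitted, and longer lists give more regions a rank above the tie.

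A region's value was the largest −log10 p among peaks sharing 1 bp or more with it, or 0, and was turned into a percentile rank within its library. limma 3.58.1 (R 4.3.3, mean-variance trend) was fitted over 44 distinct hippocampus libraries with group and sex as terms, and with both combined for the difference between the sexes. P-values are two-sided and Benjamini-Hochberg adjusted over 16201 regions. The fit was tested on simulated data, in which most of the shifted regions were not called. A region carries the name of the protein-coding gene whose TSS is nearest, up to 100 kb away, which is not shown to be the target. Named are the 12 regions of smallest p in each direction, up to 3 of smallest p in each list, and 6 in each interaction. The members and gene lists were chosen with earlier results of these data known. Alternatives changed the list length, peak score and threshold, region value, filter, scale, samples, terms, weights and replicate block, and left out each library in turn. Regions of some genes that these rules name are not reported here.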

Additional observations from a re-analysis of the deposited data

Results flagged for a closer look

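Several values had 1 library standing apart from the rest of its group, measured as the gap to the nearest library over the whole range of the group. Chance alone does this in about 1 of 20 groups. In MOR-LPS the share of peaks inside consensus regions had a gap of 0.482, set by female 15-3 at 32.8%, which also had the longest list. Male 6-0, with the fewest peaks (16414), stood apart in the share of regions with a peak and in the tied rank of regions without one (a gap of 0.538 each). Marker shares in MOR-LPS also had such gaps for CA pyramidal neurons (0.5), oligodendrocytes (0.5), interneurons (0.667) and endothelial and mural cells (1), each a step of 1 or a few genes. SAL-LPS had libraries standing apart as well. Oligodendrocyte markers were at 38.5% in female 10-4 and at most 7.69% in the others. Endothelial and mural markers were at 10.0% in male 3-3 and 0 in the others. Among the named regions, the ranks in MOR-LPS had a gap of 0.67 at Selenow and 0.544 at Clk3.

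The difference between MOR-LPS and SAL-LPS departed from that between MOR-SAL and SAL-SAL at the intergenic region of chromosome 10, by -52.8 points. It differed between females and males in introns of Mitf, by -101.8 points, and of Gramd4, by 97.8 points. These 3 are the calls given in the report with the libraries on which they depend.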

How the results depend on the processing

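No region ranked higher was called under any alternative run. The count ranked lower went from 0 to 1, the chromosome 10 region, with the number of peaks as a term, with lists 1-2 and 5-2 both kept, and over 0 to 1 when libraries were left out in turn. The adult treatment interaction called 0 in place of 1 with lists of equal length, −log10 q of at least 5, the sum of −log10 p times bases, no variance trend, array weights, oligodendrocyte markers as a term, lists 1-2 and 5-2 both left out, prefix means, naming style as a term, or without libraries of fewer than 30000 peaks (0 to 1 leaving out libraries in turn). The difference between the sexes, with 2 calls, gave 2 other regions with lists of equal length. It gave 0 with −log10 q of at least 5, with MOR-LPS and SAL-LPS alone, astrocyte markers as a term, prefix means or naming style. Only the Mitf region was called with array weights, oligodendrocyte markers as a term, or without SAL-LPS 10-4 and MOR-LPS 15-3. With interneuron markers as a term the 1 call was another region, and neither Mitf nor Gramd4 was called. There were 4 calls with the number of peaks or dentate markers as a term or lists 1-2 and 5-2 both left out. The sum of −log10 p times bases gave 6, and leaving out libraries of fewer than 30000 peaks gave 12 (0 to 6 leaving out libraries in turn). Naming style, the 2 libraries left out together and the short lists were chosen after seeing the data. Causes were not tested.

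With the identifier prefix as a replicate block the counts were 0 higher, 0 lower, 1 in the adult treatment interaction and 2 between the sexes, as without it. The occupancy count was 0 throughout, and no replicate block was run for it. The ratio of numbers of peaks was 1.04 to 1.34 leaving out libraries in turn.

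Small differences changed sign. The region near Snap25 gave 1.32 with −log10 q of at least 5, in place of -12.1. Of Il12a, 1 region gave -0.518 with naming style and -3.17 without short lists, and the other -0.807 with the number of peaks, -0.634 without short lists and -1.564 to 6.329 leaving out libraries in turn. Il1b gave 3.558 with lists of equal length, 0.302 without SAL-LPS 10-4 and MOR-LPS 15-3, and -9.313 to 2.259 likewise. The median SE of a difference was 10.0 points, and the lists hold no read depth.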
